A study of Homo sapiens with 6 samples.

Results

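The chemokines and chemokine receptors of C4-2B prostate cancer cells were taken as the genes whose symbols match the family names CXCL, CCL, XCL and CX3CL1 for ligands and CXCR, CCR, XCR, CX3CR1 and ACKR for receptors. This gave 63 of the 58024 genes in the expression table, 41 ligands and 22 receptors. C4-2B, written C42-B in the sample labels, is a human prostate cancer line derived from LNCaP by passage through castrated mice. RNA-Seq of 3 libraries of parental cells (C42-B 0, 1 and 2) and 3 libraries of enzalutamide resistant cells (C42-B_ENZ 0, 1 and 2) was compared. Enzalutamide is an antiandrogen drug. The resistant cells were a surviving population, not a single clone, that had been passaged for at least 6 months in enzalutamide rising from 1 to 20 µM and was then kept in 5 µM. The parental cells were passaged alongside with 1% DMSO as vehicle, per the series' design text, whereas the study's methods state a lower ceiling for the vehicle. The extraction notes name exposure to 10 µM enzalutamide before RNA was taken, and their wording leaves unclear whether this included the parental cells. Nothing in the labels says that the 3 libraries of a group came from separate cultures, so the p values below measure the spread between libraries, which may be technical.

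Chemokines are small secreted or membrane-bound proteins that direct the movement of cells, mostly leukocytes, along a concentration gradient. Their receptors are heptahelical proteins coupled to Gi proteins, except for the atypical receptors (ACKR), which bind chemokines and take them up without classical G protein signalling. In epithelial tumours chemokines are known for shaping which leukocytes enter the tissue, and CXCL12 with CXCR4 is known for its part in the homing of prostate cancer cells to bone.

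The family is divided by the spacing of the first conserved cysteines of the mature ligand, and the coding stretches that carry them are shown for the 7 ligands whose expression differed between the groups. The sequences are those of the reference transcripts of GENCODE v44 (GRCh38), written 5′ to 3′, with the cysteine codons in capitals. The first cysteine codon shown is the first one of the spacing given by the gene's name after 18 codons of signal sequence were skipped.
CX3CL1: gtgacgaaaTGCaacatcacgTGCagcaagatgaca
XCL1: aagaggaccTGTgtgagcctcact
CCL28: gcctccagcTGTTGCacggaggtttca
CXCL13: agcttgaggTGTagaTGTgtccaagagagc
CXCL12: agctacagaTGCccaTGCcgattcttcgaa
CCL2: ccagtcaccTGCTGTtataacttcacc
CXCL16: actggaagtTGTtatTGTggtaaaagaatt
The pair stands 3 codons apart in CX3CL1, 1 codon apart in CXCL13, CXCL12 and CXCL16, and adjacent in CCL28 and CCL2. XCL1 lacks the partner, and its next cysteine codon lies 36 codons further on. A stretch was found in all 41 ligands, with 14 CXC, 24 CC, 1 CX3C and 2 XC genes. The search used the spacing in the name, so this is no independent check of it. For the 2 XC genes the first cysteine codon was taken without a spacing. CX3CL1 and CXCL16 encode the longest products of the 7, with 397 and 254 coding codons against 89 to 127 in the others. Both are known as transmembrane chemokines on a mucin stalk.

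The values are FPKM, fragments scaled to transcript length and to the mapped reads of the library, and the tests are those of limma on log2(FPKM + 0.1), run on the 24468 genes that averaged 0.1 FPKM or more over the 6 libraries. Changes are given on that scale, which understates the change of low genes and makes its size depend on the added 0.1. An exact permutation test of 3 against 3 libraries cannot go below a p of 0.1, so it was not used. Depth was estimated at 13500000 to 20300000 reads per library from the smallest steps between low values. Resistant replicate 0 stood apart, with 27153 genes above 0 against 21956 to 24080 in the other 5 libraries. Enzalutamide resistant cells held less KLK3 mRNA, the androgen-regulated gene of prostate-specific antigen, at 44 ± 2.58 FPKM (SD, n = 3) against 2560 ± 274 FPKM in parental cells.

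Most chemokine and receptor genes were at or near 0 in both groups. Of the 63 genes, 27 were listed at 0 in all 6 libraries, 36 were above 0 in at least 1 library and 17 reached 0.3 FPKM in any library. Of these, 16 passed the filter and were tested, and 47 were not. Enzalutamide resistant cells had higher levels of 4 members, CX3CL1, CCR10, XCL1 and CCL28, and lower levels of 4, CXCL13, CXCL12, CCL2 and CXCL16. Among all genes tested, 22.1% were called higher and 22.3% lower, 44.4% in all. Of the members, 4 of 6 at a mean of 1 FPKM or more and 4 of 10 below it were called, against 53.2% and 26.6% of all genes at those levels and 55.7% of protein-coding genes. The shares of members called were near those of all genes. CX3CL1, XCL1 and CCL28 passed the filter only through their resistant values, and CXCL13 and CXCL12 only through their parental values. The median log2 change was -0.13 over the 16 members and -0.05 over all genes tested. Groups did not overlap for 5 members with resistant libraries higher and 5 with resistant libraries lower, against 26.6% and 28.1% of all genes tested and 54.8% in either direction. The filter lay between ACKR1 and CXCL10, at means of 0.0606 and 0.048 FPKM over the 6 libraries, and CX3CR1, CCL8 and CCL27, at 0.123, 0.128 and 0.135 FPKM. As bulk RNA was measured, fewer cells that express a gene and less RNA per cell cannot be told apart.

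**Figure D1:**
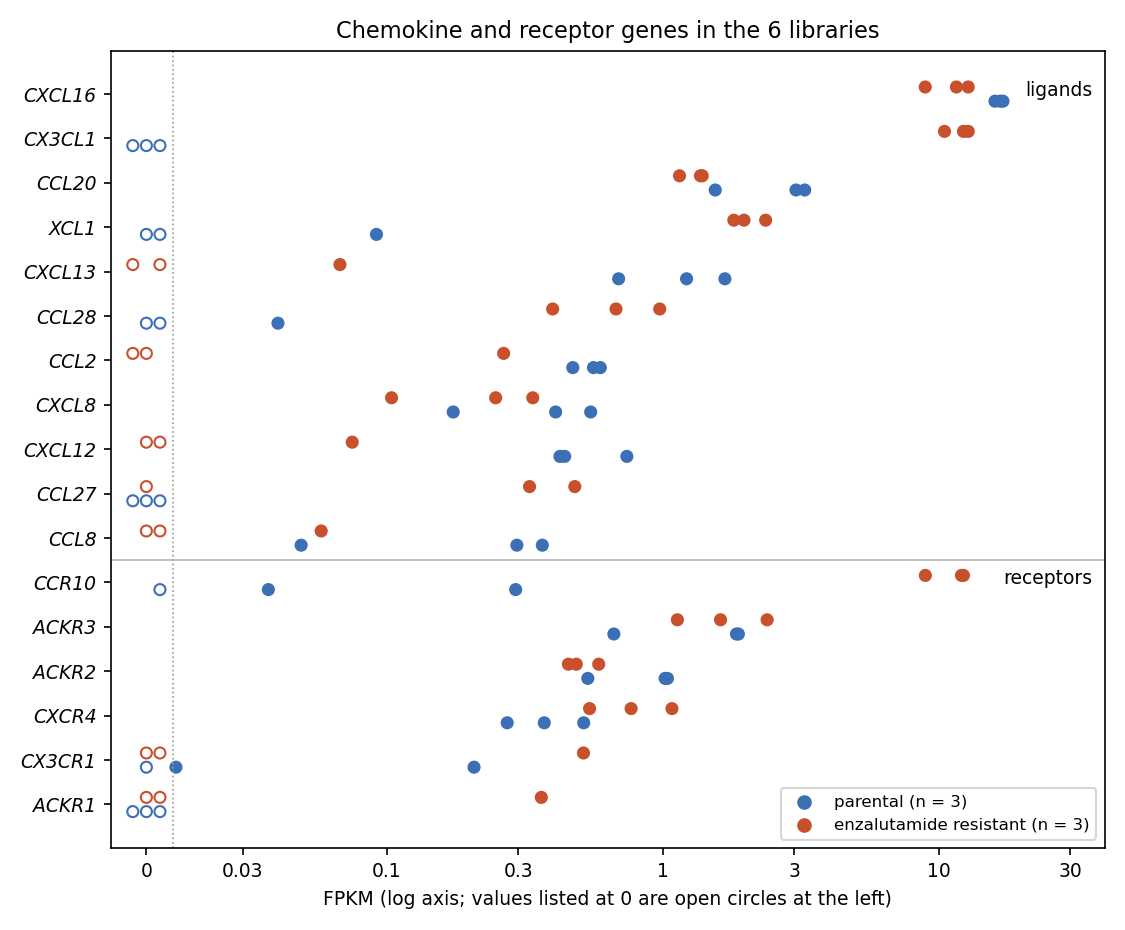
Level of the 17 chemokine and receptor genes that reached 0.3 FPKM in any library, with FPKM on a log axis and a point for each of the 3 parental (blue) and 3 enzalutamide resistant (orange) libraries. Open circles at the left are values listed at 0. CX3CL1, XCL1, CCL28 and CCR10 were higher in all resistant libraries, and CXCL16, CXCL13, CXCL12 and CCL2 were higher in all parental libraries.

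The composition of the ligand transcripts differed between the groups. The summed level of the 41 ligands was 22.8, 22.2 and 21.8 FPKM in parental replicates 0, 1 and 2 and 27.4, 29.1 and 27.6 FPKM in resistant replicates 0, 1 and 2. In parental cells CXCL16 held 73.1%, 77% and 73.2% of that sum. In resistant cells CXCL16 held 32.6%, 39.8% and 46.4%, and CX3CL1, at 0 in the parental libraries, held 44.9%, 43.9% and 38%. Ligand mRNA was thus mainly that of a single transmembrane chemokine in parental cells and of both in resistant cells. The summed receptor level was 2.74, 2.80 and 3.50 FPKM in parental libraries and 14.1, 14.7 and 14.8 FPKM in resistant libraries. CCR10 accounted for 63.5%, 83.5% and 81.9% of the sum in resistant cells. In parental cells the atypical receptor ACKR3 held the largest share in replicates 0 and 2, at 68.6% and 52.8%, and ACKR2 in replicate 1, at 37.1%.

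**Figure D2:**
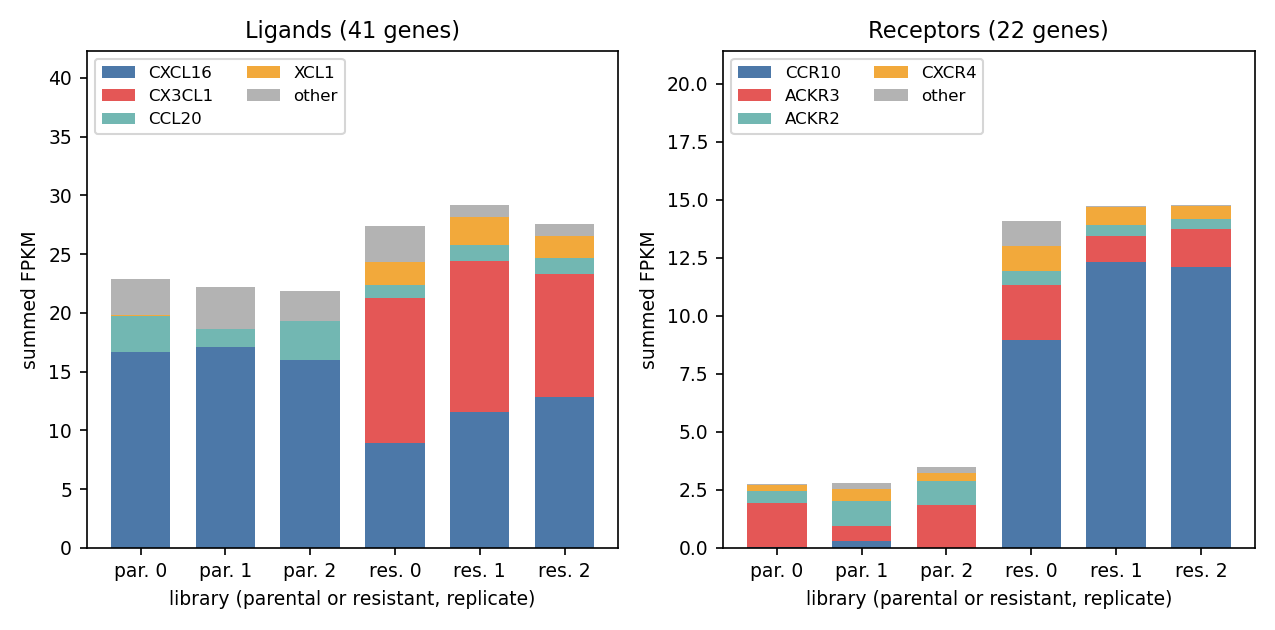
Stacked bars of the summed FPKM of the 41 ligands (left) and the 22 receptors (right) in each library, parental (par.) or resistant (res.) with its replicate number, with the 4 leading genes of each set in colour and all others in grey. The axes of the panels differ. CX3CL1 and XCL1 are added to CXCL16 in the resistant libraries, and CCR10 makes up most of the receptor bars there.

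CX3CL1, the only CX3C ligand, also called fractalkine, tethers and attracts cells that carry CX3CR1. It was listed at 0 in all 3 parental libraries and at 12.3, 12.8 and 10.5 FPKM in resistant replicates 0, 1 and 2. Every resistant library lay far above every parental one, and no fold change is given against values of 0 (limma, Benjamini-Hochberg adjusted p = 1.3e-05). The resistant values correspond to roughly 640, 640 and 470 reads if the reference transcript of 3285 bases is assumed. In order of mean level among protein-coding genes, CX3CL1 went from the genes at 0 to rank 7603. The gene lies on the plus strand at chr16:57372477-57385044 (GRCh38), between CCL22 and CCL17. CCL17 was listed at 0 in all libraries, and CCL22 reached no more than 0.0476 FPKM.

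XCL1, or lymphotactin, attracts dendritic cells that carry XCR1. It stood at 0.0917, 0 and 0 FPKM in parental libraries and at 1.97, 2.36 and 1.81 FPKM in resistant libraries. The groups did not overlap, and the change was 4.10 ± 0.41 on the log2 scale (SE, limma, Benjamini-Hochberg adjusted p = 0.000456). The near-identical copy XCL2 was listed at 0 throughout, so how reads were divided between the pair could not be checked. XCL1 lies at chr1:168576605-168582069 on the plus strand. The receptor gene XCR1 was listed at 0 in all libraries.

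Of the 14 CXC ligands, the 6 that carry the ELR motif and attract neutrophils through CXCR1 and CXCR2 were at or near 0 in both groups. CXCL1, CXCL2 and CXCL6 were listed at 0 in all libraries, and CXCL3 and CXCL5 were above 0 only in resistant replicate 0. CXCL8, which encodes interleukin-8, stood at 0.548, 0.174 and 0.409 FPKM in parental libraries and at 0.338, 0.248 and 0.104 FPKM in resistant libraries. The groups overlapped, and the change of -0.51 ± 0.52 did not pass the test (limma, Benjamini-Hochberg adjusted p = 0.456).

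Among the other 8 CXC ligands, the 3 that were tested were called lower in enzalutamide resistant cells, against 22.3% of all genes tested. CXCL13 and CXCL12 passed the filter only through their parental values, so the shared direction of the 3 is no separate result. CXCL16, which binds CXCR6 and also acts as a scavenger receptor for oxidised lipoproteins, was the most abundant chemokine of the parental cells at 16.7, 17.1 and 16.0 FPKM. In resistant cells it stood at 8.94, 11.6 and 12.8 FPKM. The groups did not overlap, with a change of -0.59 ± 0.15 on the log2 scale (limma, Benjamini-Hochberg adjusted p = 0.0192). The call was lost when any parental library was left out, at adjusted p values of 0.0634, 0.0612 and 0.0523 by limma without replicate 0, 1 and 2. CXCL16 lies on the minus strand at chr17:4733533-4739928 and shares 76 of its 2793 exonic bases with MED11 and 96 with ZMYND15, which lie on the plus strand.

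CXCL13, which draws B cells and follicular T cells through CXCR5, stood at 1.22, 1.68 and 0.692 FPKM in parental libraries and at 0, 0.0676 and 0 FPKM in resistant libraries. It had the largest decrease of the 16 tested members, at -3.37 ± 0.48 (limma, Benjamini-Hochberg adjusted p = 0.00189). The resistant values amount to about 1 read in all. CXCL12, the stromal ligand of CXCR4 and ACKR3, stood at 0.441, 0.741 and 0.424 FPKM in parental libraries and at 0.0749, 0 and 0 FPKM in resistant libraries. The change was -2.36 ± 0.47 (limma, Benjamini-Hochberg adjusted p = 0.00728), from roughly 16, 25 and 10 reads to 2, 0 and 0. Neither gene overlapped between groups. The interferon-induced ligands CXCL9, CXCL10 and CXCL11 of CXCR3 did not pass the filter and had no value over 0.169 FPKM, and CXCL14 and CXCL17 were listed at 0.

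The 24 CC ligands included 11 at 0 in all libraries, and 5 were tested. CCL28, a mucosal ligand of CCR10 and CCR3, stood at 0.0403, 0 and 0 FPKM in parental libraries and at 0.975, 0.677 and 0.399 FPKM in resistant libraries. It was higher in all resistant libraries, by 2.74 ± 0.47 on the log2 scale (limma, Benjamini-Hochberg adjusted p = 0.00404). CCL27, the skin ligand of CCR10, was at 0 in every parental library and at 0.480, 0 and 0.329 FPKM in the resistant libraries. These values amount to 2, 0 and 1 reads and did not pass the test at 1.55 ± 0.75 (limma, Benjamini-Hochberg adjusted p = 0.143). Without resistant replicate 1, the library at 0, the fitted change was 2.32 ± 0.29 with an adjusted p of 0.00506 by limma. Of its 973 exonic bases 950 are shared with a long non-coding RNA on the same strand.

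CCL2, which attracts monocytes through CCR2, stood at 0.472, 0.594 and 0.561 FPKM in parental libraries and at 0, 0 and 0.265 FPKM in resistant libraries. The decrease of -2.06 ± 0.62 passed narrowly (limma, Benjamini-Hochberg adjusted p = 0.0355). It rested on 5, 6 and 4 reads against 0, 0 and 2, and the call was lost in 5 of the 6 fits that left out a library, at adjusted p values of 0.0786 to 0.102 by limma. With the replicate number as a block the adjusted p was 0.0596 by limma. The nearby CCL8, also a monocyte attractant, stood at 0.0489, 0.366 and 0.296 FPKM against 0.0578, 0 and 0 FPKM. Its groups overlapped, and the change of -1.37 ± 0.60 did not pass (limma, Benjamini-Hochberg adjusted p = 0.113). Without parental replicate 0 it was -1.88 with an adjusted p of 0.0194 by limma.

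CCL20, the ligand of CCR6, was the most abundant CC ligand in both groups. It stood at 3.04, 1.55 and 3.27 FPKM in parental libraries and at 1.15, 1.37 and 1.39 FPKM in resistant libraries. No resistant library reached the lowest parental one, yet the change of -0.89 ± 0.33 missed the threshold (limma, Benjamini-Hochberg adjusted p = 0.0709). Parental replicate 1 decided this, since without it the change was -1.22 ± 0.21 with an adjusted p of 0.0125 by limma.

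**Figure D3:**
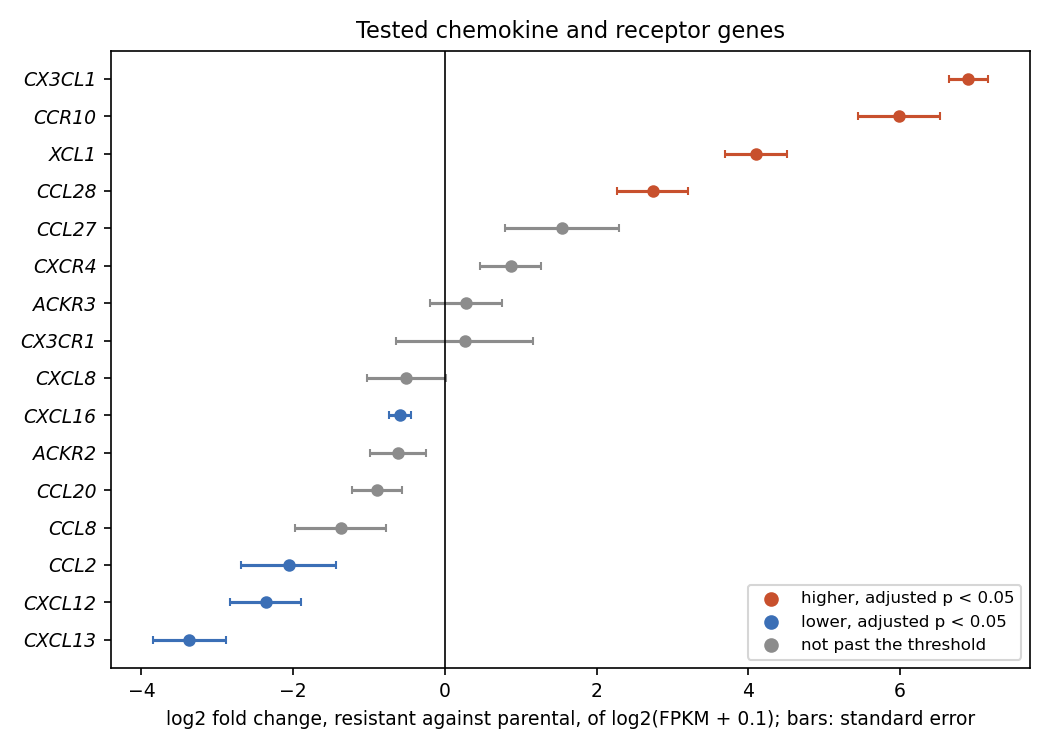
Log2 change of the 16 tested members on the log2(FPKM + 0.1) scale, enzalutamide resistant against parental, with bars for the standard error from limma. Orange points passed the test as higher, blue points as lower and grey points did not pass. The size of the change of low genes depends on the added 0.1, also beyond CX3CL1 and CCL27, which were listed at 0 in the parental libraries. With 1 or 0.01 FPKM added instead, CCL28 changed by 0.72 or 5.25, CCR10 by 3.45 or 7.72 and CCL2 by -0.51 or -4.19. The standard errors do not cover this. The changes run from CXCL13 at -3.37 to CX3CL1 at the top.

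Of the 22 receptors, 10 were listed at 0 in all libraries and 5 were tested. CCR10, the receptor of CCL27 and CCL28 on skin-homing T cells and on plasma cells, was the only receptor that passed the test. It stood at 0.0372, 0.293 and 0 FPKM in parental libraries and at 8.95, 12.3 and 12.1 FPKM in resistant libraries, which is roughly 1, 9 and 0 reads against 240, 310 and 280. The groups were far apart, with a change of 5.99 ± 0.54 on the log2 scale (limma, Benjamini-Hochberg adjusted p = 0.000285). CCR10 lies on the minus strand at chr17:42678889-42683917 and shares 463 of its 2619 exonic bases with CNTNAP1, a gene of the plus strand. CNTNAP1 rose from 0.244 ± 0.147 to 2.17 ± 0.352 FPKM. Whether the counting used strand is not given in the sources used here, so reads of the shared stretch cannot be assigned. The level of CCR10 in resistant cells was above that of CNTNAP1 in every library.

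CXCR4, the signalling receptor of CXCL12, stood at 0.273, 0.517 and 0.372 FPKM in parental libraries and at 1.08, 0.768 and 0.543 FPKM in resistant libraries. Every resistant value lay above every parental one, but the closest pair nearly touched, and the change of 0.87 ± 0.40 did not pass (limma, Benjamini-Hochberg adjusted p = 0.124). ACKR3, the atypical receptor that takes up CXCL12 and CXCL11, stood at 1.88, 0.665 and 1.85 FPKM against 2.39, 1.13 and 1.62 FPKM. Its groups overlapped, with a change of 0.28 ± 0.48 (limma, Benjamini-Hochberg adjusted p = 0.666) that turned to -0.18 without parental replicate 1.

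ACKR2, a scavenger of inflammatory CC chemokines, stood at 0.535, 1.04 and 1.02 FPKM in parental libraries and at 0.586, 0.486 and 0.455 FPKM in resistant libraries. It did not pass the test at -0.62 ± 0.37 (limma, Benjamini-Hochberg adjusted p = 0.218). CX3CR1, the receptor of CX3CL1, stood at 0.0172, 0 and 0.207 FPKM against 0.516, 0 and 0 FPKM, so its resistant level came from replicate 0 alone. Its change was 0.26 ± 0.90 (limma, Benjamini-Hochberg adjusted p = 0.842), and -0.62 without resistant replicate 0. ACKR1, known from red cells and venules, was at 0.363 FPKM in resistant replicate 0 and at 0 elsewhere, and was not tested.

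The groups were then read for ligands whose receptor was present in the same cells. Of 44 known ligand and receptor pairs, 0 had both genes at a mean of 1 FPKM in parental cells and 0 in resistant cells. CX3CL1 was present without CX3CR1 at that level, XCL1 without XCR1, CXCL16 without CXCR6, and CCR10 without CCL27 or CCL28. At 0.3 FPKM there were 3 pairs in parental cells, CXCL12 with CXCR4, CXCL12 with ACKR3 and CCL2 with ACKR2. In resistant cells there was 1, CCL28 with CCR10. None of the 3 parental pairs was therefore among those of resistant cells.

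Many chemokine genes lie in clusters, and most of the clusters held few tested genes or none. On chromosome 17 the 8 genes from CCL5 to CCL4 gave 0 tested members. A second cluster of 6 on chromosome 17, from CCL2 to CCL1, gave 2 tested members, CCL2 and CCL8. The 6 ELR genes from CXCL8 to CXCL2 on chromosome 4 gave only CXCL8. The members that differed lay at separate loci. No cluster had all of its members tested, so a change of a whole cluster could not have been seen.

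Genes that neighbour the 8 members called were read from the same fit. Of 89 tested neighbours within 250 kb of a member's start, 21 were higher and 19 lower in resistant cells, 44.9% against 44.4% of all genes tested. Within 100 kb, 12 were higher and 3 lower of 34, or 44.1%. CX3CL1 had 12 tested neighbours, of which 2 were higher and 4 lower. DOK4, which encodes an adaptor of receptor tyrosine kinases 99.4 kb away, rose from 1.81 ± 0.197 to 29.7 ± 1.51 FPKM, while ADGRG1, an adhesion receptor gene, fell from 27.4 ± 1.5 to 5.32 ± 1.77 FPKM. CCR10 had 29 tested neighbours, 8 higher and 9 lower. CCL28 had 12, with 2 higher, HMGCS1 of cholesterol synthesis at 43.1 ± 4.50 against 23.0 ± 1.65 FPKM and NNT of mitochondrial NADPH supply at 28 ± 2.45 against 7.08 ± 1.75 FPKM. CXCL16 had 31, with 7 higher and 6 lower, among them ALOX15, a lipoxygenase gene, at 2.13 ± 0.361 against 34.8 ± 1.62 FPKM. Within 250 kb, neighbours of CXCL16, CCR10 and CX3CL1 moved in both directions, whereas within 100 kb CX3CL1 had 2 higher and 0 lower and CCR10 5 higher and 1 lower. These neighbours were named after their values were seen.

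**Figure D4:**
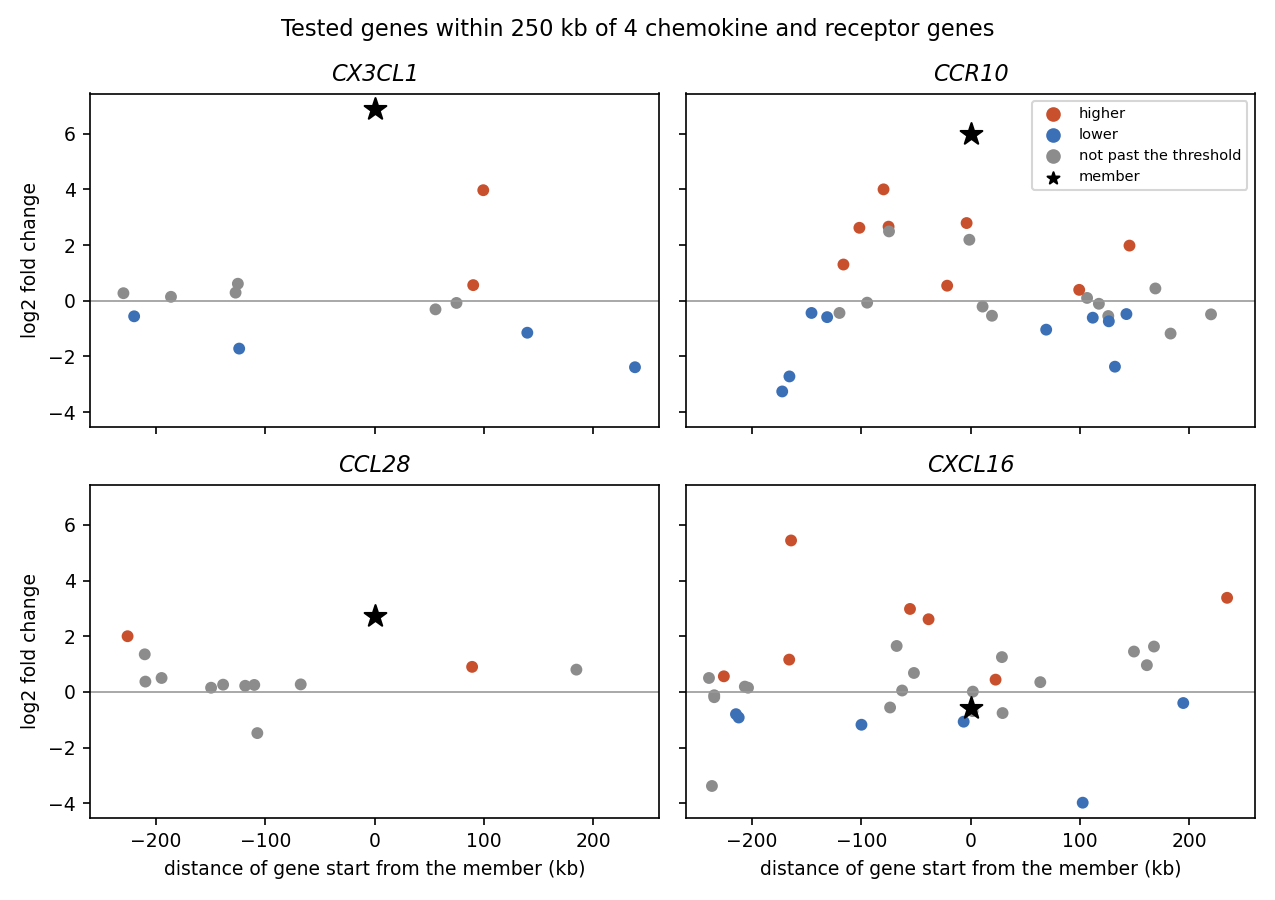
Log2 change, enzalutamide resistant against parental, of the tested genes within 250 kb of CX3CL1, CCR10, CCL28 and CXCL16, plotted by the distance of their start from that of the member in kb. Orange points passed as higher, blue as lower, grey did not pass, and the star is the member. Around CX3CL1 2 neighbours were higher and 4 lower, and around CCR10 8 were higher and 9 lower.

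Genes that act on chemokine proteins or on their signals were read next. Of 12 tested genes of cleavage and shedding, 4 were higher, 5 lower and 3 did not pass, with a median change of -0.37. The share called was 75%, against 44.4% of all genes tested and 55.7% of protein-coding genes. DPP4, a surface peptidase known to trim the amino terminus of CXCL12 and other chemokines, stood at 66.8, 77.3 and 70.9 FPKM in parental libraries and at 2.66, 2.77 and 3.02 FPKM in resistant libraries, a change of -4.62 ± 0.11 (limma, Benjamini-Hochberg adjusted p = 2.99e-06). The sheddases of CX3CL1 and CXCL16 moved apart. ADAM10 fell from 98.2 ± 8.87 to 54.9 ± 2.04 FPKM (limma, Benjamini-Hochberg adjusted p = 0.000489), and ADAM17 rose from 6.69 ± 0.480 to 9.65 ± 0.455 FPKM (limma, Benjamini-Hochberg adjusted p = 0.0124). ADAM9, a related protease, fell by 1.07 on the log2 scale. TIMP2, an inhibitor of metalloproteinases, fell from 9.39 ± 0.351 to 0.385 ± 0.0427 FPKM. Its relative TIMP1, named after its values were seen, stood at 1.10, 0 and 0.382 FPKM in parental libraries and at 75.8, 73.1 and 64.9 FPKM in resistant libraries.

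Receptor signalling genes were changed in 28 of 40 tested, 16 higher and 12 lower, with a median of 0.04. This is 70%, against 44.4% of all genes tested and 55.7% of protein-coding genes. RGS2, which encodes a regulator of G protein signalling, rose from 4.31 ± 0.75 to 475 ± 19.7 FPKM, a change of 6.77 ± 0.14 (limma, Benjamini-Hochberg adjusted p = 2.08e-06). Whether it acts on chemokine receptor signals in these cells was not tested. Subunits of the G protein itself went both ways. Of the inhibitory alpha subunits, GNAI2 rose from 24.8 ± 2.53 to 97.3 ± 2.33 FPKM. GNAI1 fell from 28.9 ± 2.63 to 1.81 ± 1.08 FPKM, and GNAI3 fell from 6.67 ± 0.162 to 3.87 ± 0.144 FPKM. Of the beta subunit genes, GNB4 fell from 50.9 ± 3.41 to 6.85 ± 0.784 FPKM. GNB1 fell from 176 ± 23.3 to 113 ± 2.93 FPKM, while GNB2 rose from 205 ± 12.9 to 256 ± 10.5 FPKM. GNAI1, GNAI3, GNB1 and GNB2 were named after their values were seen. STAT3, a transcription factor downstream of cytokine receptors, fell from 74.7 ± 3.42 to 17.2 ± 1.76 FPKM. The arrestins, named after their values were seen, also diverged, ARRB1 at -1.26 ± 0.17 and ARRB2 at 0.44 ± 0.12 on the log2 scale. The call of ARRB2 was lost without parental replicate 0 and without resistant replicate 0 or 2, at adjusted p values of 0.0619, 0.0867 and 0.0912 by limma.

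The NF-kB pathway drives the transcription of many inflammatory chemokines, and of its 27 tested genes 7 were higher, 8 lower and 12 did not pass, with a median of -0.20. The share called, 55.6%, was near the 55.7% of protein-coding genes. NFKBIA, the inhibitor that is itself an NF-kB target, fell from 169 ± 13.3 to 63.8 ± 11.6 FPKM. MAP3K7, the kinase TAK1, rose from 3.43 ± 0.375 to 13.6 ± 0.417 FPKM, and CHUK, a kinase of the same pathway, rose from 6.31 ± 0.298 to 13.9 ± 1.16 FPKM. IL1R1, the receptor of interleukin-1, fell by 0.94 on the log2 scale. IL1A and IL6 were listed at 0 in all libraries.

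Of the chemokine-like genes, outside the family by name, 12 were tested, 2 were higher, 3 lower and 7 did not pass, a share called of 41.7% against 44.4% of all genes tested. MIF, a cytokine that binds CD74 and CXCR4, was far above every chemokine at 1780, 2060 and 1680 FPKM in parental libraries and 753, 843 and 859 FPKM in resistant libraries. It fell by 1.16 on the log2 scale (SE 0.10, limma, Benjamini-Hochberg adjusted p = 0.000227), and its homologue DDT fell by 0.89. CD74 stood at 0.173, 0.161 and 0.207 FPKM against 0.375, 0.954 and 0.542 FPKM and narrowly missed the test at 1.29 ± 0.43 (limma, Benjamini-Hochberg adjusted p = 0.0504). CMTM7 rose by 0.80 ± 0.11 and CKLF by 0.55 ± 0.17 on the log2 scale. The call of CKLF was lost without parental replicate 2 and without each resistant replicate, at adjusted p values of 0.0968 to 0.12 by limma. The platelet chemokine genes PF4 and PPBP were listed at 0 in all libraries.

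**Figure D5:**
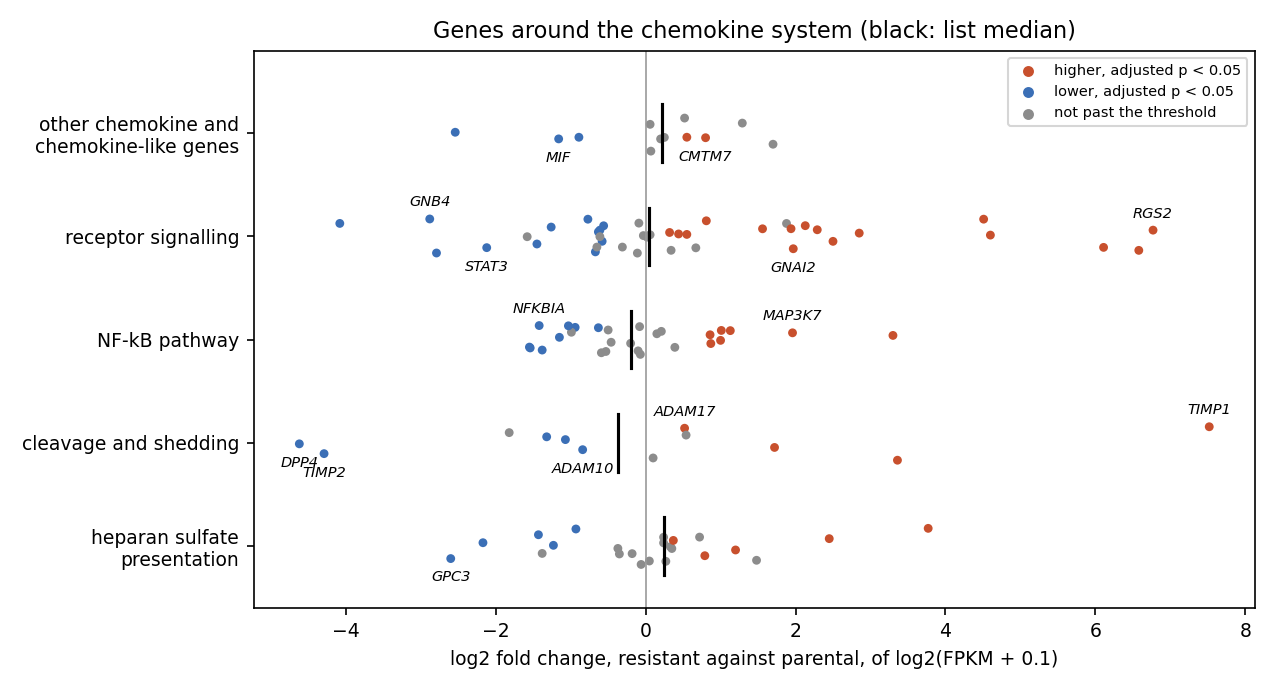
Log2 change, enzalutamide resistant against parental, on the log2(FPKM + 0.1) scale for the tested genes of 5 lists around the chemokine system, with a point per gene, the list median as a black bar and some of the genes named in the text labelled. Orange points passed as higher, blue as lower and grey did not pass. Every list holds genes in both directions, and its median lies between -0.37 and 0.24.

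Markers of the cells that usually make chemokines were read beside these results. Of 14 leukocyte markers, 5 were listed at 0 in all libraries (CD3E, CD3D, CD2, NKG7 and TYROBP), and PTPRC, the pan-leukocyte marker, was at 0.0531 FPKM in resistant replicate 0 and at 0 elsewhere. Their summed level was 0.152 to 0.994 FPKM in parental and 0.257 to 3.33 FPKM in resistant libraries. The 6 endothelial markers summed to 0.735 to 1.24 FPKM in parental and 0.206 to 0.453 FPKM in resistant libraries, with KDR at 0 throughout. The 7 fibroblast markers summed to 8.04 to 10.9 and 8.41 to 15.0 FPKM. In this list DCN, at 0 in all parental libraries and at 3.63, 3.78 and 4.35 FPKM in the resistant libraries, and LUM were higher in resistant cells, and PDGFRB was lower. Of the 10 prostate epithelial markers 7 were lower, 2 higher and 1 did not pass, and all were above 0. VWF, the 1 endothelial marker that was tested, was lower in resistant cells, as CXCL12 was, and DCN and LUM were higher, as CX3CL1 was. Their part in these results was not tested.

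Resistant replicate 0 also held more low chemokine values than the rest. In it 30 members were above 0, against 13 to 17 in each of the other 5 libraries, and 9 untested members were above 0 in it alone. Without this library the 4 members called higher were still CX3CL1, CCR10, XCL1 and CCL28. That fit kept the filter over all 6 libraries. At parental means of 0, 0.0306 and 0.0134 FPKM, CX3CL1, XCL1 and CCL28 passed the filter only through their resistant values. The unchanged count is therefore no separate result. The levels of these 4 members in resistant replicates 1 and 2 alone were above those of all parental libraries.

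The promoters of members that differed were looked up in the RefSeq table (GRCh38.p14), which held 44 of the 63 members and, of the 8 members called, CCL28, CXCL12 and CXCL13. The 250 bases before the start are shown 5′ to 3′ on the gene's strand for these 3, the only called members that the table held. CXCL12 and CXCL13 were lower and CCL28 higher in resistant cells, and a link between promoter composition and direction was not tested. Capitals mark matches to GGGCGG on either strand, a GC box, or to TATAAA. The windows are chr5:43412392-43412641 on the minus strand for CCL28, chr10:44385098-44385347 on the minus strand for CXCL12 and chr4:77511503-77511752 on the plus strand for CXCL13.
CCL28: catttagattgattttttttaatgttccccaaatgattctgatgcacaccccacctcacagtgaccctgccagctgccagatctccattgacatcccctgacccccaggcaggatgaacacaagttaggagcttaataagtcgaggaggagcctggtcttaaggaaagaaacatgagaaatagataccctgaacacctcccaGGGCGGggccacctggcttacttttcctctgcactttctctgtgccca
CXCL12: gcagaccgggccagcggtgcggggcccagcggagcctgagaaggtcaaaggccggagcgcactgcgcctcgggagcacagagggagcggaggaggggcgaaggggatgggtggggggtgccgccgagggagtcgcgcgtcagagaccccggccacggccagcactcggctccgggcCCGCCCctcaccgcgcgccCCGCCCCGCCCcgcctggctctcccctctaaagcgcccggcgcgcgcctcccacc
CXCL13: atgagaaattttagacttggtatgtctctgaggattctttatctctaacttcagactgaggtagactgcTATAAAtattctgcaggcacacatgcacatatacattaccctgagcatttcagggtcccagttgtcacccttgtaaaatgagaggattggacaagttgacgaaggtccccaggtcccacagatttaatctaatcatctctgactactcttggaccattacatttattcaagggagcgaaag
CXCL12 has a GC-rich promoter, with 78% G and C and 31 CpG sites, and holds the reverse complement of GGGCGG 3 times. CCL28 has 49.2% and 2 CpG sites with 1 match to GGGCGG, and CXCL13 has 41.2% and 2 CpG sites with 1 match to TATAAA far upstream. Over all 27305 promoters of the table the medians were 58.0% and 11 CpG sites, and over the 44 members they were 49.8% and 3 CpG sites. GGGCGG was found in 10 of the 44 members and in 42.3% of all promoters, and TATAAA in 14 members and in 11.1%.

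The NF-kB consensus of the scan was found on either strand in 10 of the 44 members and in 5.05% of all promoters. It was found in none of the 3 windows above. The site is shown, in capitals within 30 bases, for CCL20 and for the ELR genes that carry it, since these genes were low or at 0 here. The windows lie at chr4:73869305-73869334 on the plus strand (CXCL1), chr4:74099253-74099282 on the minus strand (CXCL2), chr4:74038748-74038777 on the minus strand (CXCL3), chr4:73998748-73998777 on the minus strand (CXCL5), chr4:73836579-73836608 on the plus strand (CXCL6) and chr2:227813753-227813782 on the plus strand (CCL20).
CXCL1: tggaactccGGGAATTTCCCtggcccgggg
CXCL2: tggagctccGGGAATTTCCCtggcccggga
CXCL3: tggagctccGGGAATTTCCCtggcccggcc
CXCL5: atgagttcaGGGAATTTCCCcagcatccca
CXCL6: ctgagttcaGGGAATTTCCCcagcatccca
CCL20: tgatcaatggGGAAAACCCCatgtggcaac
The 5 ELR windows hold the match on both strands and the window of CCL20 on 1. CXCL1, CXCL2 and CXCL6 were listed at 0, whereas CCL20 stood at 1.15 to 3.27 FPKM over the 6 libraries. Matches are a description of the sequence and were not measured as bound sites. TGANTCA, an AP-1 motif, was found in 7 members and in 6.6% of all promoters.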

How the data were processed

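RNA-Seq of 3 parental and 3 enzalutamide resistant C4-2B libraries was analysed. Per the study's methods, the authors used TrimGalore 0.4.3 on 50 bp single-end reads, STAR 2.5.3 for alignment to GRCh38, and Cufflinks 2.2.1 with GENCODE v25. The submitters' processing notes name Trimmomatic 0.27, FastQC 0.10.1 and mm10 instead, while the loci in the table are those of GRCh38. The deposited table names no unit, and its values were read as FPKM from the methods and the column totals. It holds no counts, so no test on counts was possible, and a 0 was read as listed at 0.

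Groups were tested in limma 3.58.1 under R 4.3.3 (lmFit and eBayes with trend) on log2(FPKM + 0.1), using the 24468 genes that averaged 0.1 FPKM or more, two-sided, with Benjamini-Hochberg adjustment over all of them and a threshold of 0.05. The fit was checked on simulated data. Read numbers assume fragments of 200 bases and the reference transcript's length, and are rough. Positions, exons and transcripts came from GENCODE v44 (GRCh38), in which 56980 of 58024 identifiers matched. Tables were handled with Python 3.11.15 and pandas 2.3.3, and figures drawn with matplotlib 3.10.9.

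Members with 0.3 FPKM in any library were named, with, from each of the 5 lists, the 4 genes of smallest adjusted p at a mean of 1 FPKM or more, and known partners of named members. The members, lists and tests were chosen with earlier results of these data known. Alternatives were other pseudocounts, filters and scalings, no trend, the replicate number as a block, each library left out, a minimum change, another pair level and another window. A few genes of the family and the lists are not reported here.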

Additional observations from a re-analysis of the deposited data

How the results depend on the processing

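Of the values of single genes, 439 of 447 kept direction and side of the threshold under other settings, and 284 of 306 when a library was left out. Directions turned for ACKR3 (-0.18 to 0.53 when a library was left out, the lowest without parental replicate 1) and for CX3CR1 (-0.06 with a pseudocount of 0.01 FPKM, and -0.62 to 0.76 when a library was left out, below 0 without parental replicate 1 at -0.05 and without resistant replicate 0), neither of which passed the test. Members called numbered 4 to 5 higher and 2 to 4 lower when a library was left out, the 2 without parental replicate 2. The members behind these counts changed. CXCL16 and CCL2 were lost without any of the parental replicates. CCL8 was called lower without parental replicate 0 and CCL20 without parental replicate 1. The 5 higher, without resistant replicate 1, included CCL27. With a filter at a mean of 1 FPKM, 1 member was called lower, since fewer members are tested. Requiring a log2 change of at least 1 left 3320 of all genes lower, 18 receptor signalling genes and 2 chemokine-like genes. The chemokine-like list had 3 to 5 genes called when a library was left out. Pairs at 0.3 FPKM numbered 3 in parental and 1 in resistant cells, and neighbours within 100 kb were 12 higher and 3 lower. The calls of CKLF and ARRB2 were lost in several fits, among them that without the variance trend (limma adjusted p = 0.0812 and 0.0667), and CD74 passed under upper quartile scaling (0.0432). Deviations of libraries with the same replicate number correlated at 0.00802, 0.0165 and -0.00301, so no shared deviation by number was seen. Whether equal numbers shared a culture or batch was not tested. With the replicate number as a block, 4670 genes were higher and 4793 lower, with 4 members higher and 3 lower, and not every library correlated best with its own number. Members under 0.3 FPKM in all libraries rest on few reads and were not tested.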

Other observations

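Chemokines are held on cell surfaces by heparan sulfate, and of 23 tested genes of its synthesis and core proteins 5 were higher, 5 lower and 13 did not pass, with a median change of 0.24. The share called, 43.5%, was near the 44.4% of all genes tested. The core protein genes diverged. GPC3, which encodes a glypican, stood at 6.19, 5.28 and 5.01 FPKM in parental libraries and at 0.923, 0.630 and 0.938 FPKM in enzalutamide resistant libraries, a change of -2.60 ± 0.24 (limma, Benjamini-Hochberg adjusted p = 0.000298). GPC6, another glypican gene, stood at 6.21, 6.52 and 5.97 FPKM against 14.5, 13.3 and 15.4 FPKM, a change of 1.20 ± 0.11 (limma, Benjamini-Hochberg adjusted p = 0.000345). Neither gene overlapped between groups. Of the enzymes, HS6ST1, a 6-O-sulfotransferase gene, fell from 10.1 ± 1.34 to 2.17 ± 0.460 FPKM, and EXTL2 fell from 21.9 ± 3.50 to 8.02 ± 0.741 FPKM.

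The 47 members that were not tested were not all at 0. Of them 20 were above 0 in some library, and their highest value was 0.363 FPKM. In resistant replicate 0, 16 of the 47 were above 0, against 1 to 4 in each of the other libraries. CCL5, which draws T cells and monocytes, was at 0.223 FPKM in that library and at 0 elsewhere. Over all genes 2752 were above 0 in resistant replicate 0 alone.

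XCL1 lies 33.9 kb from RP4-738P11.3, a processed pseudogene that overlaps XCL2 on the opposite strand. It was at 0 in every parental library and at 2.05, 2.35 and 0.935 FPKM in the resistant libraries (limma, Benjamini-Hochberg adjusted p = 0.000648). CNOT6L, the only tested neighbour of CXCL13, rose from 7.11 ± 0.796 to 14.0 ± 1.11 FPKM, while CXCL13 fell. ACKR2 shares 698 of its 5460 exonic bases with a long non-coding RNA of the opposite strand that stood at 44.2 to 50.9 FPKM in parental and 21.2 to 26.3 FPKM in resistant libraries.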
